A study of Mus musculus with 6 samples.

Results

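The mRNA levels of 8 enzymes of amine oxidation, tyrosine breakdown and alcohol oxidation were examined in MSR1 KO and MSR1 WT macrophages. The genes were Maoa, Maob, Aoc3, Fah, Hgd, Adh1, Adh5 and Adh7. They are 8 of the 52550 genes in the deposited table and were chosen by symbol. Maob and Aoc3 had already been seen to be lower in MSR1 KO libraries, so the differences of the 8 genes between the genotypes are given as a description, without p-values, and calls on them in the fit over the whole table are no evidence. Of the 8 genes, 6 had enough counts to be among the 16402 genes tested across the table, while Hgd and Adh1 did not.

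All libraries came from bone marrow of C57BL/6 mice, grown into macrophages for 7 days at 25 ng/ml M-CSF, followed by 48 h with BMSCs (bone marrow stem cells) across the membrane of a transwell. The 3 MSR1 KO libraries came from mice labelled as knockouts of MSR1, a scavenger receptor of macrophages, and the 3 MSR1 WT libraries from mice with MSR1, and both genotypes were co-cultured. No library of macrophages without BMSCs was analysed here, the sex and age of the mice are not in the labels, and although the study calls the libraries of a genotype biological replicates, the sources used here do not say whether these were separate mice or separate cultures. P-values measure the spread between these libraries.

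Monoamine oxidases sit on the outer mitochondrial membrane and remove the amine group from serotonin, noradrenaline, dopamine and trace amines, giving an aldehyde and hydrogen peroxide. AOC3, also called VAP-1, does similar chemistry on primary amines with copper and a modified tyrosine as cofactors, outside the cell, and is best known in adipocytes, smooth muscle and endothelium. Breakdown of phenylalanine and tyrosine runs mainly in the liver, through homogentisate, which HGD opens, to fumarylacetoacetate, which FAH splits into fumarate and acetoacetate. Alcohol dehydrogenases and aldehyde dehydrogenases oxidize alcohols and the aldehydes that such reactions leave.

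Total counts ranged from 36143518 to 47417448 per library. Msr1 had 2118, 1825 and 2000 counts in MSR1 KO libraries and 7543, 9163 and 9219 in MSR1 WT libraries, so it was lower under the KO label but not absent. All 14 genes of a macrophage marker list had counts. Their summed level was 29606 to 31226 CPM in MSR1 KO and 29323 to 32429 CPM in MSR1 WT libraries. CPM are counts scaled to library size and TMM factors, a measure of relative level. Of the 14 genes, 7 were higher and 1 was lower in every MSR1 KO library, where 12.1% and 13.4% of all tested genes were. By edgeR's quasi-likelihood test Fcgr1 and Aif1 were higher (log2 fold change 1.14 and 0.67, adjusted p = 0.018 and 0.02). Mrc1 was lower (-0.39, adjusted p = 0.037 by that edgeR test). Markers of stromal cells were present too. The 20 genes of that list summed to 1972, 2530 and 2012 CPM in MSR1 KO and to 3531, 2759 and 3068 CPM in MSR1 WT libraries, and 7 of the 20 were lower in MSR1 KO libraries at an adjusted p under 0.05 by edgeR's quasi-likelihood test, where 2.66% of all tested genes were. In bulk RNA, fewer cells of a type and less RNA per cell cannot be told apart. All 37 mitochondrially encoded genes were listed at 0, so the RNA of the mitochondrial genome could not be set beside the mitochondrial enzymes.

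Both monoamine oxidase genes were lower in MSR1 KO libraries, Maob by more than Maoa. Maoa (ENSMUSG00000025037.6) lies on the plus strand of the X chromosome from 16619698 to 16687818 (GRCm38) and encodes the form that prefers serotonin and noradrenaline. It had 335, 281 and 395 counts in MSR1 KO libraries 1 to 3, and 617, 635 and 489 counts in MSR1 WT libraries 1 to 3. The mean ± SD was 8.29 ± 1.15 CPM for MSR1 KO (n = 3) and 13.4 ± 1.56 CPM for MSR1 WT (n = 3), with a fitted difference of 1.62-fold. The highest MSR1 KO library, at 9.32 CPM, was below the lowest MSR1 WT library, at 11.8 CPM. The log2 fold change of MSR1 KO against MSR1 WT was -0.69 (SE 0.15), between -0.78 and -0.59 over fits that each lacked 1 library.

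Maob (ENSMUSG00000040147.14), the form that prefers phenylethylamine, lies tail to tail with Maoa on the minus strand, from 16709282 to 16817366, and 21464 bp separate the genes. It had 8, 38 and 34 counts in MSR1 KO libraries 1 to 3, against 123, 148 and 97 in MSR1 WT libraries 1 to 3. In CPM the MSR1 KO libraries held 0.223, 0.954 and 0.731, and the MSR1 WT libraries 2.98, 3.12 and 2.35. The groups did not overlap, and library 1 of MSR1 KO stood well below the other MSR1 KO libraries. Means ± SD were 0.636 ± 0.375 CPM for MSR1 KO (n = 3) and 2.82 ± 0.411 CPM for MSR1 WT (n = 3). The fitted difference was 4.38-fold, a log2 fold change of -2.13 (SE 0.45). Without MSR1 KO replicate 1 the log2 fold change was -1.73, and without MSR1 KO replicate 2 it was -2.52. The coefficient of variation of Maob was 59.0% within MSR1 KO and 14.6% within MSR1 WT libraries, while that of Maoa was 13.8% and 11.7%.

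**Figure D1:**
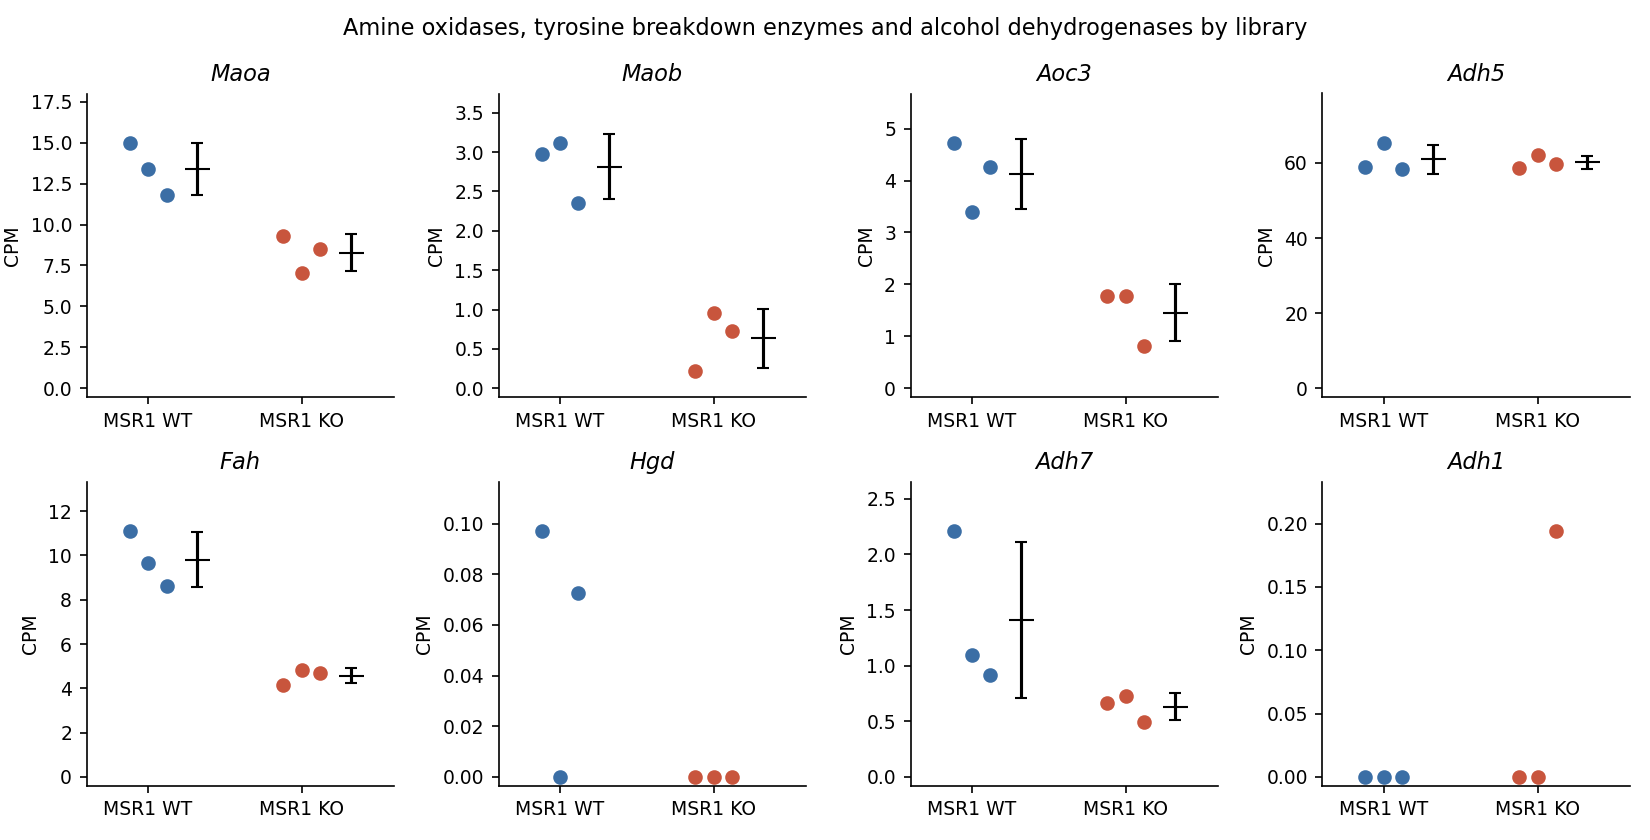
Level of each of the 8 genes in CPM (vertical axis, each panel on its own scale) in the 3 MSR1 WT libraries (blue) and the 3 MSR1 KO libraries (red), with points in the order of library number and the mean ± SD as a black bar, which is left out for Hgd and Adh1. For Maoa, Maob, Aoc3, Fah and Adh7 every MSR1 KO point is below every MSR1 WT point, for Adh5 the points overlap near 60.1 and 60.9 CPM, and Hgd and Adh1 are at 0 in most libraries.

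Maob also supplied a smaller share of the monoamine oxidase counts in MSR1 KO libraries. It made up 2.33%, 11.9% and 7.93% of the counts of both genes in MSR1 KO libraries and 16.6%, 18.9% and 16.6% in MSR1 WT libraries. The 95% Wilson interval of the MSR1 KO library with the highest share, 8.8% to 15.9%, met those of MSR1 WT libraries 1 and 3, 14.1% to 19.5% and 13.8% to 19.8%, whereas the interval of MSR1 KO library 1, 1.19% to 4.53%, met none of the MSR1 WT intervals. Such intervals cover counting error only. The mean share was 7.39 ± 4.81% (SD, n = 3) in MSR1 KO and 17.4 ± 1.33% (SD, n = 3) in MSR1 WT libraries, so Maoa supplied most counts of the pair in every library.

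The nearest gene with counts beyond Maob was Fundc1, a mitophagy receptor gene 739198 bp away, with a log2 fold change of -0.08 (SE 0.091). Its counts overlapped between the genotypes. Since both monoamine oxidase genes are X-linked, the sex-linked transcripts were read beside them. Xist and 4 Y-linked genes, Ddx3y, Kdm5d, Eif2s3y and Uty, had counts in each of the 6 libraries. In CPM, Xist was lower and all 4 Y-linked genes were higher in every MSR1 KO library than in any MSR1 WT library, as was found for 13.4% (lower) and 12.1% (higher) of all tested genes. The log2 fold change was -0.50 for Xist (edgeR's quasi-likelihood test, adjusted p = 0.087) and between 0.26 and 0.32 for the Y-linked genes (adjusted p of 0.13 or more in that edgeR test). The part of a mixed or shifted sex of the donors in the values of Maoa and Maob was not tested.

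Aoc3 was lower in every MSR1 KO library than in any MSR1 WT library, and so, by a small margin, was its neighbour and relative Aoc2, which did not pass the test. Aoc3 (ENSMUSG00000019326.14) is encoded on the plus strand of chromosome 11 from 101330605 to 101341938. Its counts were 64, 71 and 38 in MSR1 KO libraries 1 to 3 and 195, 161 and 176 in MSR1 WT libraries 1 to 3. The largest MSR1 KO value was 1.78 CPM and the smallest MSR1 WT value 3.39 CPM, with means of 1.46 ± 0.557 CPM (SD, n = 3) and 4.13 ± 0.678 CPM (SD, n = 3). The fitted difference was 2.84-fold, a log2 fold change of -1.50 (SE 0.33), which ranged from -1.68 to -1.20 when 1 library at a time was left out. The library with least Aoc3 was MSR1 KO library 3, not library 1, in which Maob was lowest.

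Aoc2, a related amine oxidase gene, ends 903 bp before Aoc3 begins on the same strand. It had 60, 75 and 54 counts for MSR1 KO and 79, 92 and 79 for MSR1 WT, which gave a log2 fold change of -0.29 (SE 0.27, adjusted p = 0.63 by edgeR's quasi-likelihood test). In CPM the highest MSR1 KO library, at 1.88, was just below the lowest MSR1 WT library, at 1.91. Aoc3 gave 51.6%, 48.6% and 41.3% of the counts of the pair in MSR1 KO libraries and 71.2%, 63.6% and 69.0% in MSR1 WT libraries, and the groups did not overlap. Both genes are alike in sequence, so reads could have been split between them by the counting program, which is not named in the sources used here. Aoc1, the diamine oxidase gene, was listed at 0 in every library.

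**Figure D2:**
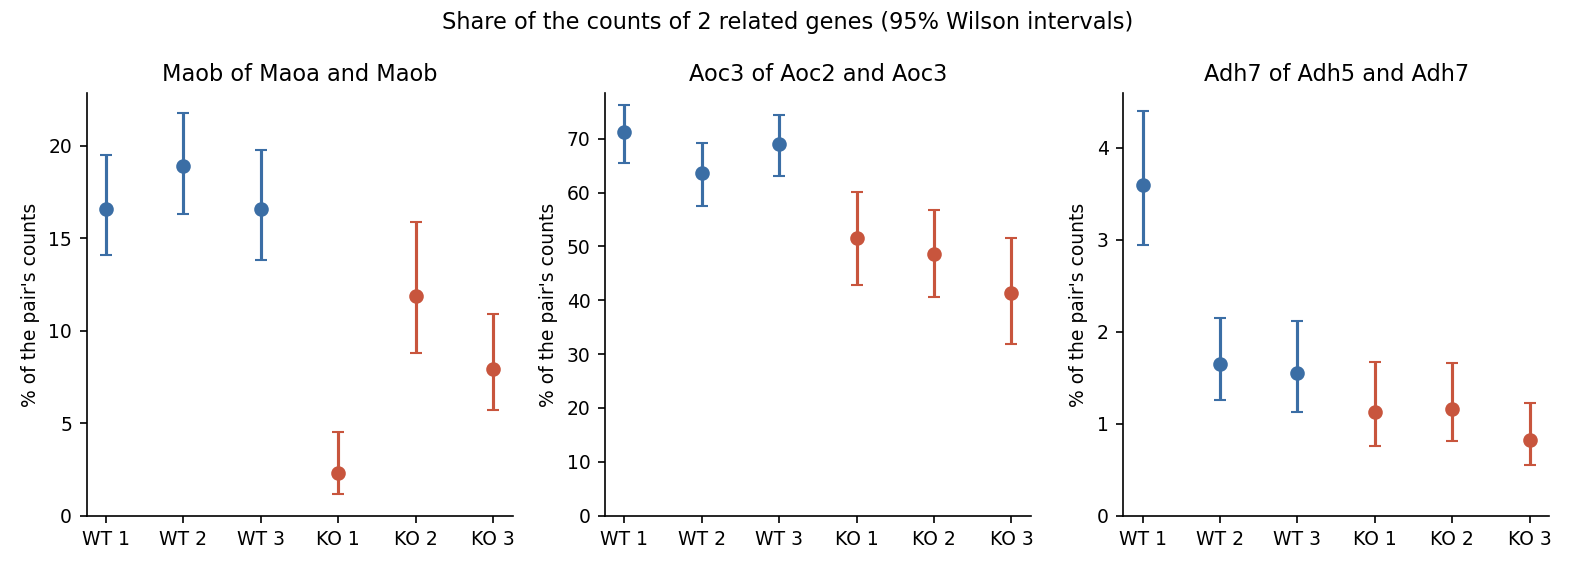
Share of the counts of a pair of related genes that fell on Maob, Aoc3 or Adh7 (vertical axis, percent) in each library (horizontal axis), with MSR1 WT in blue, MSR1 KO in red and bars for the 95% Wilson interval, which covers counting error only. The Maob share is lowest in MSR1 KO library 1 (2.33%), the Aoc3 share is between 41.3% and 51.6% in MSR1 KO and between 63.6% and 71.2% in MSR1 WT libraries, and the Adh7 share stands apart in MSR1 WT library 1 (3.60%).

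Fah was lower in every MSR1 KO library, with a clear gap between the genotypes. Fah (ENSMUSG00000030630.16), which carries out the last step of tyrosine breakdown, is found at 84585159 to 84606722 of chromosome 7, minus strand. Its counts were 150, 192 and 219 for MSR1 KO and 458, 459 and 357 for MSR1 WT. The means were 4.57 ± 0.346 CPM (SD, n = 3) and 9.80 ± 1.24 CPM (SD, n = 3), with a fitted difference of 2.14-fold, and the highest MSR1 KO library (4.82 CPM) was far from the lowest MSR1 WT library (8.64 CPM). The log2 fold change was -1.10 (SE 0.16) and lay between -1.18 and -1.0 as single libraries were left out. Gm2115, a noncoding gene on the opposite strand that ends 1628 bp from Fah, had 161, 181 and 150 counts in MSR1 KO and 266, 377 and 238 for MSR1 WT, and its log2 fold change of -0.72 missed the threshold (SE 0.20, adjusted p = 0.094 by edgeR's quasi-likelihood test). On the other side Zfand6, 7044 bp away, had a log2 fold change of -0.20 (SE 0.13).

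Of the genes read as steps into Fah, Tat, Hpd and Hgd had few or no counts in these macrophages. Got1 and Got2, on the same hand-written list, averaged 52.7 and 107.2 CPM in MSR1 KO and 45.2 and 105.3 CPM in MSR1 WT libraries. All 37 mitochondrially encoded genes were listed at 0 too, so a 0 need not mean that the RNA was absent. Tat, the tyrosine aminotransferase, and Hpd, which forms homogentisate, were listed at 0 in every library. Hgd (ENSMUSG00000022821.13, plus strand of chromosome 16 from 37580153 to 37632020) had 0 counts in each MSR1 KO library, against 4, 0 and 3 for MSR1 WT. A 0 leaves room for as many as 3 counts (0.0632 to 0.0835 CPM at these depths), so Hgd was at the limit of detection in both genotypes and no fold change is given. Gstz1, the isomerase between HGD and FAH, had 588, 747 and 874 counts in MSR1 KO libraries against 723, 938 and 726 for MSR1 WT, with a log2 fold change of -0.02 (SE 0.11, adjusted p = 0.94 by edgeR's quasi-likelihood test). Of the steps from homogentisate on that could be tested, Fah was therefore lower in MSR1 KO libraries and Gstz1, acting just before it, overlapped.

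**Figure D3:**
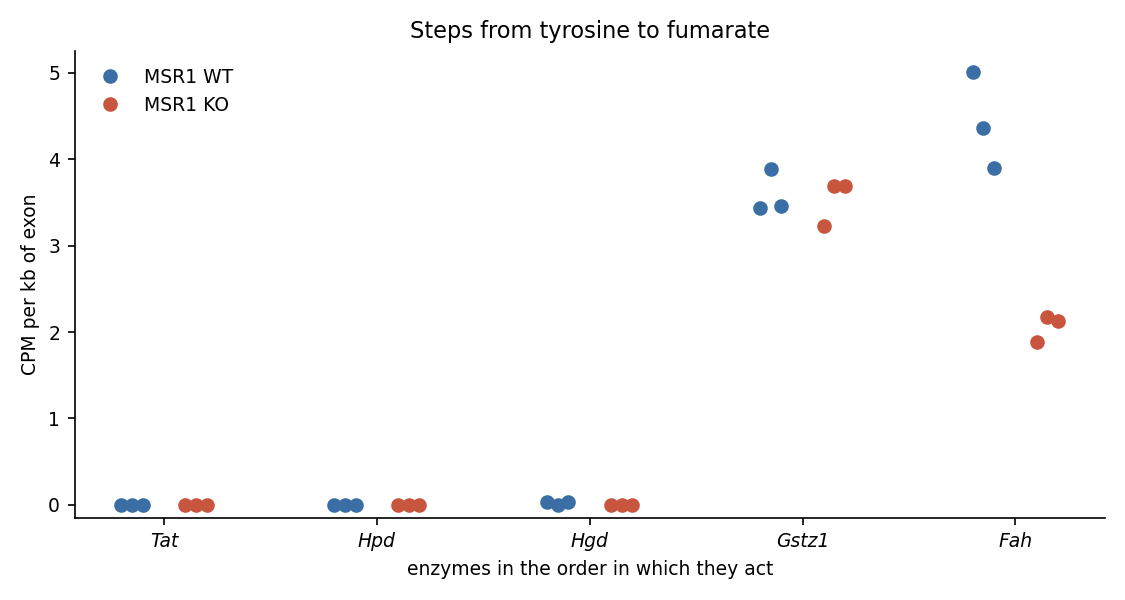
Level per kb of exon (CPM per kb, vertical axis) of 5 enzymes from tyrosine to fumarate in the order in which they act (horizontal axis), with the 3 MSR1 WT libraries in blue and the 3 MSR1 KO libraries in red. Tat and Hpd are at 0 and Hgd close to it, Gstz1 overlaps between the groups, and Fah averages 4.42 CPM per kb in MSR1 WT and 2.06 CPM per kb in MSR1 KO libraries.

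The alcohol dehydrogenase genes lie in a row on the plus strand of chromosome 3, and Adh5 and Adh7 gave different pictures. Adh5 (ENSMUSG00000028138.8, 138443093 to 138455499) encodes the class III enzyme, which oxidizes the glutathione adduct of formaldehyde and reduces S-nitrosoglutathione. It had 2105, 2471 and 2780 counts in MSR1 KO libraries and 2435, 3104 and 2415 counts in MSR1 WT libraries. Its means of 60.1 ± 1.76 CPM (SD, n = 3) and 60.9 ± 3.86 CPM (SD, n = 3) overlapped, and the log2 fold change was -0.02 (SE 0.078), between -0.05 and 0.03 over fits that each lacked 1 library. Among the 8 genes it was the one whose groups overlapped with ample counts.

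Adh7 (ENSMUSG00000055301.8, 138217760 to 138233382), whose product is active on retinol and longer alcohols, was lower in MSR1 KO libraries by an amount that rested largely on 1 library. It had 24, 29 and 23 counts in MSR1 KO libraries and 91, 52 and 38 in MSR1 WT libraries. Values in MSR1 KO libraries were 0.668, 0.728 and 0.495 CPM, and those in MSR1 WT libraries 2.21, 1.10 and 0.919 CPM, so the groups did not overlap but came close. The log2 fold change was -1.16 (SE 0.43), and without MSR1 WT replicate 1, the library with most Adh7, it was -0.68. Adh7 shares 108 exon bases with 0610031O16Rik on the other strand, which had 0 counts in every library.

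Adh1 (ENSMUSG00000074207.10, 138260991 to 138290698), the class I enzyme that oxidizes ethanol in liver, lies between them. Its 9 counts all came from MSR1 KO library 3 and every other library had 0, so neither genotype can be called higher. It is 27609 bp from Adh7 and 152395 bp from Adh5, and Metap1, which follows Adh5 at 3457 bp, had a log2 fold change of 0.12 (SE 0.095). Adh7 made up 1.13%, 1.16% and 0.821% of the counts of Adh5 and Adh7 in MSR1 KO libraries, and 3.60%, 1.65% and 1.55% in MSR1 WT libraries.

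Set against the whole table, 4 of the 6 tested genes (Maoa, Maob, Aoc3 and Fah) were lower at an adjusted p under 0.05 by edgeR's quasi-likelihood test, where 2.66% of all 16402 tested genes were. By the definition of DEGs in the study, more than 1.5-fold with p under 0.05 before adjustment, 5 of the 6 were lower, now with Adh7, where 5.05% of all tested genes were. None of the 6 was higher by either definition, where 2.25% (adjusted) and 3.59% (DEGs) of all tested genes were. For those 5 genes every MSR1 KO library was below every MSR1 WT library, which held for 13.4% of all tested genes, and the reverse, found for 12.1% of all tested genes, held for 0 of the 6. Because the genes were chosen with this contrast known, and Maob and Aoc3 because they had been seen lower, the choice of genes shaped these counts and nothing is read from them. DESeq2, run on the same counts, made calls on Maoa, Maob, Aoc3 and Fah too. It called 5.52% of the 14489 genes to which it gave an adjusted p lower, and nothing is read from its calls on these genes either. Calls at the adjusted threshold were lost when libraries were left out. Maoa, Maob, Aoc3 and Fah all missed the threshold without replicate 1 of either genotype, Fah alone was called without MSR1 KO replicate 2, MSR1 KO replicate 3 or MSR1 WT replicate 2, and Maoa and Fah were called without MSR1 WT replicate 3.

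Per length of exon, Adh5 was the most abundant of the 8 genes in both genotypes, at 11.1 ± 0.325 CPM per kb in MSR1 KO and 11.3 ± 0.713 CPM per kb in MSR1 WT libraries (SD, n = 3). In MSR1 WT libraries the order of levels per kb went on with Fah (4.42), Maoa (3.21), Maob (1.01), Aoc3 (0.893), Adh7 (0.372), Hgd (0.0216) and Adh1 (at 0), and of these neighbours Maob and Aoc3, and Hgd and Adh1, overlapped. In MSR1 KO libraries it went on with Fah (2.06), Maoa (1.99), Aoc3 (0.316), Maob (0.228), Adh7 (0.166), Adh1 (0.0289) and Hgd (at 0). There Fah and Maoa overlapped, as did Aoc3 and Maob, Maob and Adh7, and Adh1 and Hgd. The order of Aoc3 and Maob was thus not settled in either genotype.

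The sequences in front of the start sites are shown for genes with different behaviour in this contrast. Of the 8 genes, 6 had an entry among RefSeq promoters of GRCm38.p6, and Maob and Aoc3 did not. The 250 bases before the RefSeq start site are given for Maoa (chrX:16619448-16619697, plus strand) and Fah (chr7:84605943-84606192, minus strand), which were lower in MSR1 KO libraries, and for Adh5 (chr3:138442843-138443092, plus strand), which overlapped. Capitals mark GC boxes, GGGCGG on either strand, where the other strand reads CCGCCC.
Maoa: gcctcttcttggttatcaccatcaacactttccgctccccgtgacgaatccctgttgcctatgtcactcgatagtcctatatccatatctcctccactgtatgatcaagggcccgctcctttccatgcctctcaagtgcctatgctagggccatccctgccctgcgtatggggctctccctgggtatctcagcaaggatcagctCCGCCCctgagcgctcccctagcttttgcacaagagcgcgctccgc
Fah: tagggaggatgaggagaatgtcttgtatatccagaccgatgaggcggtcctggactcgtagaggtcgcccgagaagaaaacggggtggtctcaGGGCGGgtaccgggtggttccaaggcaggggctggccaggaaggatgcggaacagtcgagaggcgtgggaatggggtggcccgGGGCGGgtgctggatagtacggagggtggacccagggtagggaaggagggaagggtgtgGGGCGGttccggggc
Adh5: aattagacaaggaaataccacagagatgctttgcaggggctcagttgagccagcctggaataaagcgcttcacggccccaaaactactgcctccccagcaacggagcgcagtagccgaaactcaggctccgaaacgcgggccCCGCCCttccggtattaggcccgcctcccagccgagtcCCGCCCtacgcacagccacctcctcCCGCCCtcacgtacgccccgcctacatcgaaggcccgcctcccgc
The Maoa window holds 1 GC box at 56.8% GC, the Fah window 3 at 64.4% GC, and the Adh5 window 3 at 63.6% GC. Of 32851 promoter windows of this length, 32.7% held a GC box and 8.47% held 3 or more, and the median GC content was 52.4%. The Fah start site of RefSeq lies 780 bp inside the gene as deposited. In contrast, the windows of Adh7 (38.0% GC) and Hgd (38.8% GC) held no GC box. They held 2 matches to CCAAT and 1 match to TATAAA each, on either strand. At least 1 match to CCAAT was found in 33.8% of all windows, and at least 1 to TATAAA in 12.4%. The Adh1 window (44.8% GC), whose RefSeq start site is 16594 bp from the start of the gene as deposited, held no GC box, CCAAT or TATAAA. Fah, which was lower, and Adh5, which overlapped, thus held the same number of GC boxes, and these letter matches are no evidence that a factor binds there.

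Of 97 other genes on 6 hand-written lists for these pathways, 60 could be tested, and 4 of them (6.67%) fell in MSR1 KO libraries at an adjusted p under 0.05 by edgeR's quasi-likelihood test, where 2.66% of all tested genes did. None rose by that test, where 2.25% of all tested genes did, while 6 were higher and 14 lower at an unadjusted p under 0.05, as were 8.65% and 10.2% of all tested genes. DESeq2 called 1 of them higher (Hdc) and 7 lower (Lox, Loxl1, Loxl2, Aldh1a2, Aldh4a1, Sult1a1 and Mif). It called 4.8% higher and 5.52% lower of the 14489 genes to which it gave an adjusted p. The median log2 fold change of the 60 genes was -0.11, against -0.002 over all tested genes, and 20 of the 97 genes were listed at 0 in every library. Of the 4 genes that fell, Lox was called in each of the fits that lacked 1 library. Loxl1 was not called without MSR1 KO replicate 1, MSR1 KO replicate 3 or MSR1 WT replicate 1, Aldh1a2 was called without MSR1 KO replicate 1 or MSR1 WT replicate 3 alone, and Sult1a1 was called without MSR1 WT replicate 3 alone.

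**Figure D4:**
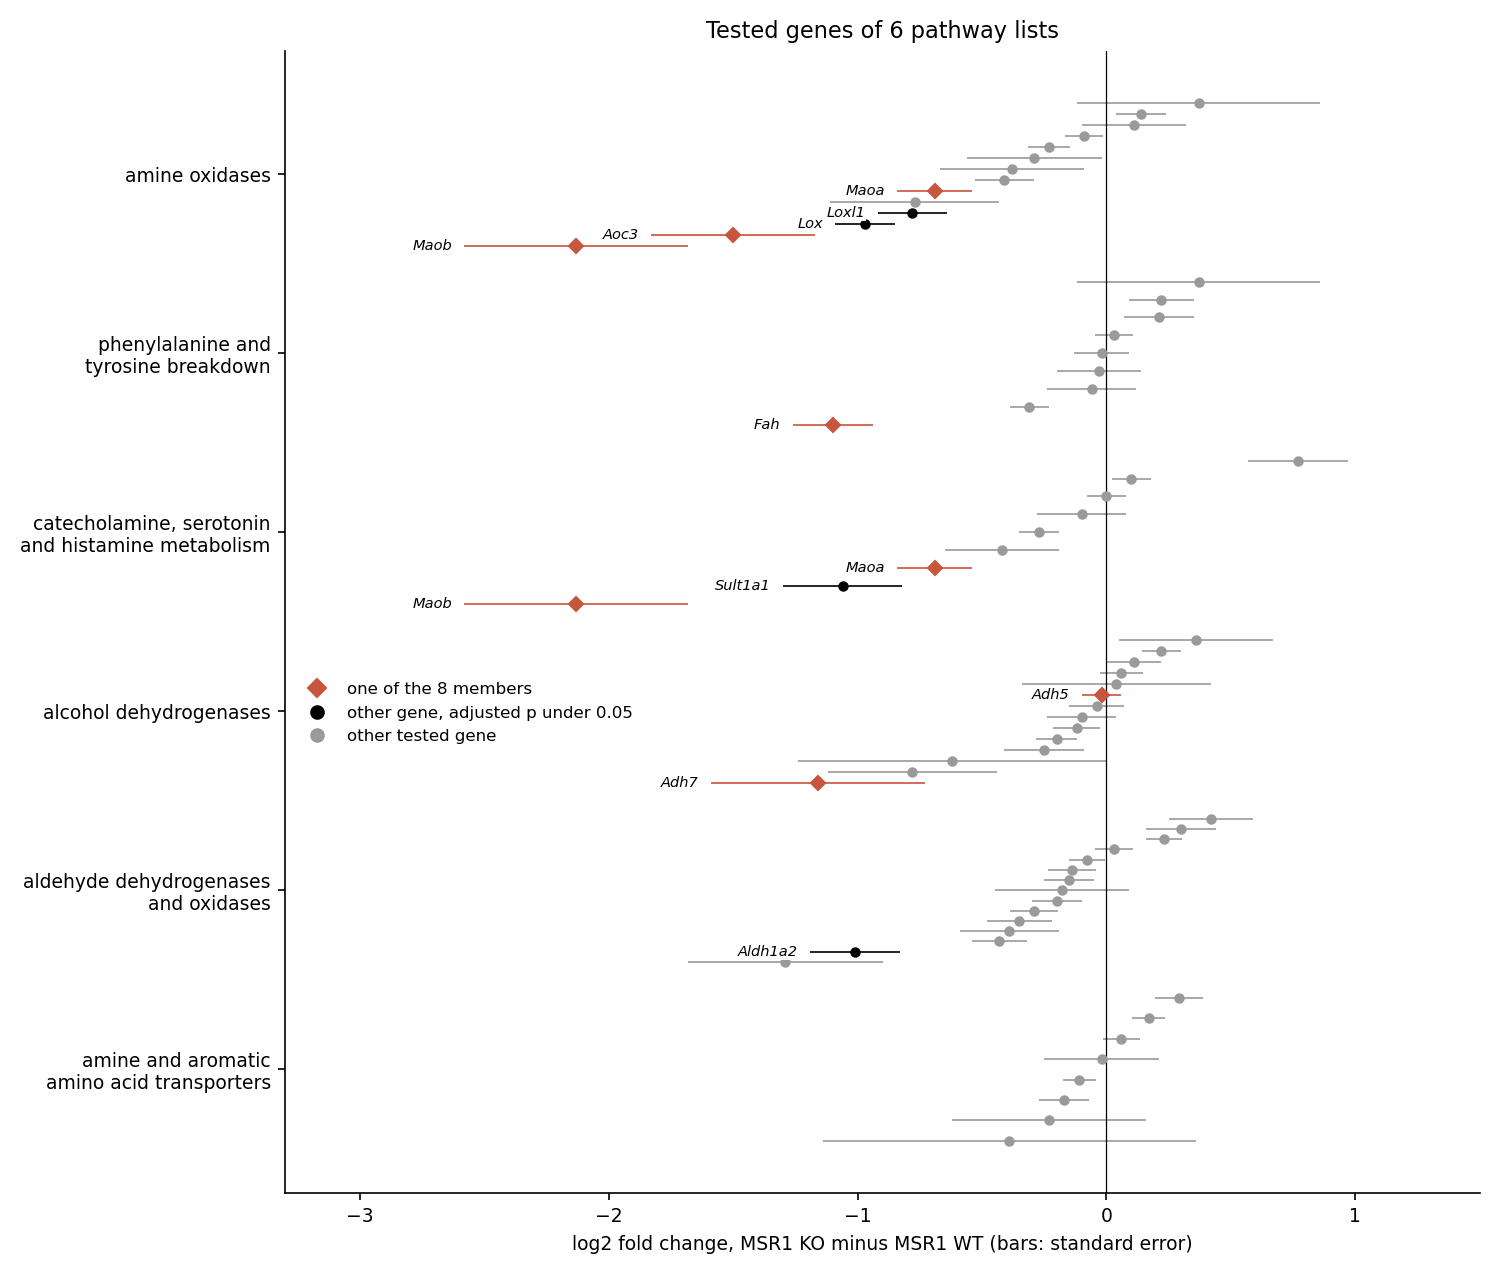
Log2 fold change of MSR1 KO against MSR1 WT (horizontal axis, bars for the standard error) of the tested genes of 6 pathway lists (vertical axis, genes sorted within each list), with the genes described above as red diamonds, other genes with an adjusted p under 0.05 in black and the remaining genes in grey. Lox, Loxl1, Sult1a1 and Aldh1a2 are the black points, all left of 0, and a gene on more than 1 list is drawn in each.

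The other amine oxidases that fell were lysyl oxidases, secreted copper enzymes that oxidize lysines of collagen and elastin so that the fibres crosslink. Lox had 5141, 6949 and 6513 counts in MSR1 KO libraries and 13701, 12383 and 12486 in MSR1 WT libraries, with no overlap. Its log2 fold change was -0.97 (SE 0.12, adjusted p = 0.0092 by edgeR's quasi-likelihood test), between -1.08 and -0.88 when 1 library at a time was left out. Loxl1 had 1328, 1725 and 1806 counts against 3469, 2811 and 2558, a log2 fold change of -0.78 (SE 0.14, adjusted p = 0.026 by the same edgeR test). Loxl2 at -0.41 (adjusted p = 0.10) and Loxl3 at -0.23 (adjusted p = 0.17) missed the threshold of that edgeR test, while DESeq2 called Loxl2 lower. Per kb of exon Lox, at 31.9 CPM in MSR1 KO and 62.4 CPM in MSR1 WT libraries, was far more abundant than Maoa, Maob or Aoc3. Of the 11 tested genes of the amine oxidase list besides Maoa, Maob and Aoc3, 7 were lower in every MSR1 KO library than in any MSR1 WT library, as were 13.4% of all tested genes, and the median log2 fold change was -0.29.

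The polyamine oxidases, which act inside the cell, gave values near 0. Smox, the spermine oxidase, had a log2 fold change of -0.09 (SE 0.075) and Paox, which oxidizes acetylated polyamines, of 0.14 (SE 0.10). Il4i1, an amino acid oxidase secreted by myeloid cells that accepts phenylalanine and tyrosine, had 175, 58 and 67 counts in MSR1 KO and 75, 76 and 106 counts in MSR1 WT libraries, so the groups overlapped and MSR1 KO library 1 was the highest.

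Among the enzymes that make and clear the substrates of monoamine oxidase, the ones that make catecholamines were hardly seen. Th, Dbh and Pnmt, for the first and the last steps of catecholamine synthesis, were listed at 0 in every library. Ddc, the decarboxylase that forms dopamine and serotonin, had 12, 5 and 25 counts under the KO label and none under the WT label, too few to be tested. Hdc, which makes histamine, had 224, 309 and 235 counts in MSR1 KO and 168, 167 and 147 for MSR1 WT. Its log2 fold change of 0.77 missed the threshold with edgeR (adjusted p = 0.071 by its quasi-likelihood test) and passed it with DESeq2. Sult1a1, a sulfotransferase of phenols and catechols, fell with 197, 175 and 289 counts in MSR1 KO against 426, 709 and 339 in MSR1 WT libraries (log2 fold change -1.06, SE 0.24, adjusted p = 0.047 by edgeR's quasi-likelihood test). Its value was -0.79 without MSR1 WT replicate 2 and -1.24 without MSR1 WT replicate 3.

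Aldehydes from amine oxidation pass to aldehyde dehydrogenases or to aldehyde reductases, and the abundant members of both groups did not pass the test. Akr1a1, the aldehyde reductase, was at 428.3 CPM per kb in MSR1 KO and 429.1 CPM per kb in MSR1 WT libraries. Aldh2, the mitochondrial aldehyde dehydrogenase, was at 85.7 and 104.9 CPM per kb (log2 fold change -0.29, adjusted p = 0.15 by edgeR's quasi-likelihood test). Aldh1a2, which makes retinoic acid from retinal, was the gene that fell among the 15 tested of this list. It had 194, 181 and 170 counts in MSR1 KO and 377, 406 and 399 counts in MSR1 WT libraries (log2 fold change -1.01, SE 0.18, adjusted p = 0.024 by the same edgeR test). Dhrs3, a retinal reductase and the most abundant gene of the alcohol dehydrogenase list, was at 100.4 and 108.8 CPM per kb (log2 fold change -0.12, adjusted p = 0.58 by the same edgeR test).

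In the remaining lists no gene passed edgeR's adjusted threshold. At an unadjusted p under 0.05, 8.65% of all tested genes were higher and 10.2% lower. Of the phenylalanine and tyrosine list, 8 genes were tested besides Fah, 0 were higher and 1 was lower at an unadjusted p under 0.05, and DESeq2 made 1 call, on Mif. Mif, the most abundant gene of that list, is a cytokine whose protein can tautomerize phenylpyruvate, and it was at 78.5 CPM per kb in MSR1 KO and 97.3 CPM per kb in MSR1 WT libraries (log2 fold change -0.31, adjusted p = 0.064 by edgeR's quasi-likelihood test). Of the alcohol dehydrogenase list, 12 genes were tested besides Adh5 and Adh7, and at an unadjusted p under 0.05 1 was higher and 2 were lower. Of the transporters of amines and aromatic amino acids, 8 were tested, of which 2 were higher and 0 lower at an unadjusted p under 0.05. Slc3a2, the heavy chain of the large amino acid transporters, was the most abundant of them in MSR1 KO libraries. It was at 85.5 CPM per kb in MSR1 KO and 70.1 in MSR1 WT libraries (log2 fold change 0.29, adjusted p = 0.15 by the same edgeR test). In MSR1 WT libraries Slc43a2 was the most abundant, at 78.3 CPM per kb, against 72.7 in MSR1 KO libraries.

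Stromal markers were lower in MSR1 KO libraries and some of these enzymes are known from stromal or muscle-like cells. The levels were therefore also set over the summed stromal list. Its most abundant genes, Acta2, Col1a2, Col1a1 and Tagln, had log2 fold changes of -0.68, -0.39, -0.26 and -0.64. Pdgfra, Cxcl12 and Pdgfrb, with fewer counts, were at -1.19, -1.11 and -0.87, while Thy1, Lum and Nt5e were at 1.31, 0.46 and 0.46. Groups that stay apart below do so over this sum, and ratios to single stromal genes were not taken. Per 1000 CPM of stromal markers, Maoa was at 4.73, 2.79 and 4.22 CPM in MSR1 KO and at 4.24, 4.85 and 3.86 CPM in MSR1 WT libraries, so its groups overlapped on this scale. Maob stayed apart at 0.113, 0.377 and 0.363 CPM against 0.844, 1.13 and 0.765 CPM. The log2 ratio of the means was -1.68 on this scale and -2.15 in CPM.

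On the same scale Aoc3 was at 0.903, 0.705 and 0.406 CPM in MSR1 KO and at 1.34, 1.23 and 1.39 CPM in MSR1 WT libraries. Fah was at 2.12, 1.91 and 2.34 CPM against 3.14, 3.50 and 2.81 CPM. The groups of Aoc3 and Fah did not overlap, with log2 ratios of the means of -0.97 and -0.57 on this scale and of -1.50 and -1.10 in CPM. Adh7 overlapped, with 0.339, 0.288 and 0.246 CPM against 0.625, 0.397 and 0.300 CPM. Adh5, whose CPM values overlapped, was higher in every MSR1 KO library than in any MSR1 WT library, with a log2 ratio of the means of 0.50. The gap was small, from 24.5 CPM in MSR1 KO library 2 to 23.7 CPM in MSR1 WT library 2.

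The 4 other pathway genes that fell were set over the same list, a comparison chosen after their values had been seen. Lox was at 72.5, 69.0 and 69.6 CPM per 1000 CPM of stromal markers in MSR1 KO and at 94.1, 94.5 and 98.5 CPM in MSR1 WT libraries. Loxl1 was at 18.7, 17.1 and 19.3 CPM against 23.8, 21.5 and 20.2 CPM. The groups of both stayed apart, at log2 ratios of the means of -0.44 and -0.25, where those in CPM were -0.97 and -0.78. Aldh1a2 and Sult1a1 overlapped between the genotypes on this scale, with log2 ratios of -0.48 and -0.53.

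**Figure D5:**
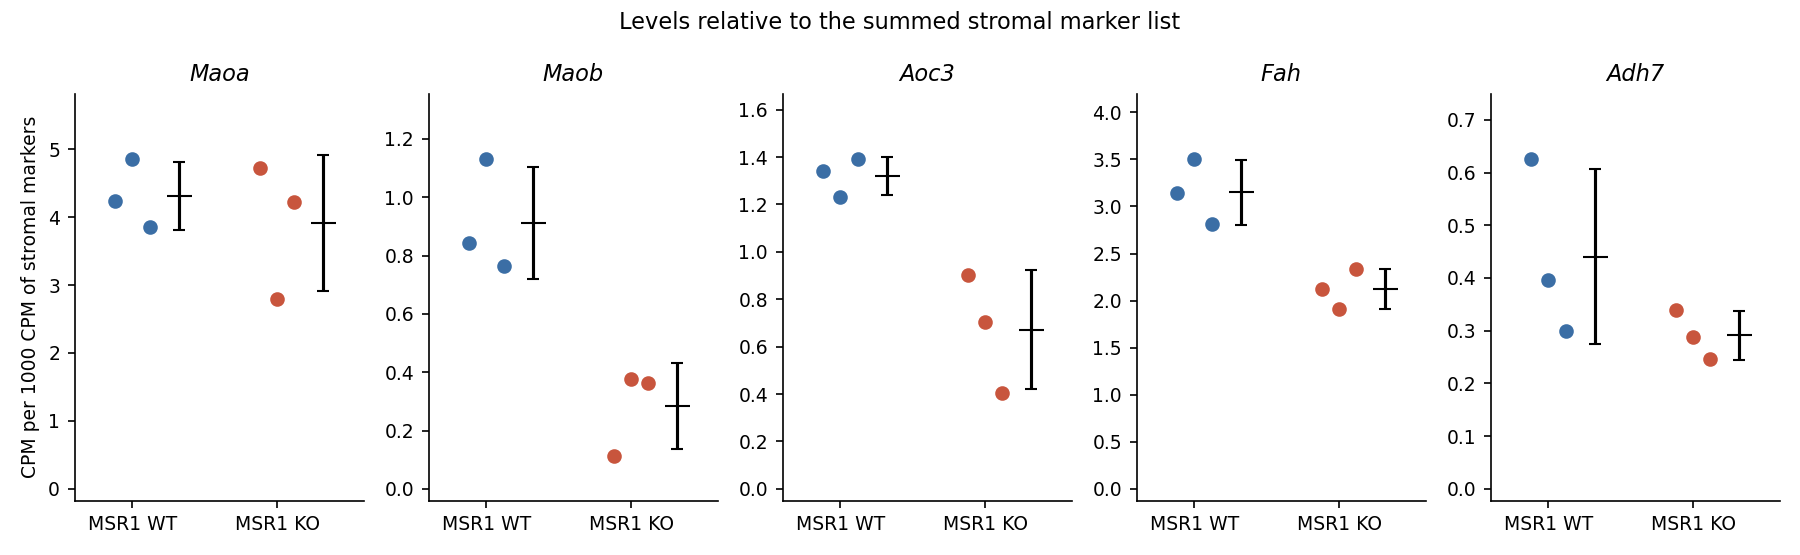
Level of 5 genes per 1000 CPM of the summed stromal marker list (vertical axis, each panel on its own scale) in the 3 MSR1 WT libraries (blue) and the 3 MSR1 KO libraries (red), with the mean ± SD as a black bar. Maob, Aoc3 and Fah remain apart, while Maoa (2.79 to 4.73 in MSR1 KO) and Adh7 overlap with MSR1 WT.

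Within the stromal list the log2 fold changes ran from -1.19 for Pdgfra to 1.31 for Thy1, with a median of -0.59. Of the 20 genes, 10 were lower and 1 (Thy1, adjusted p = 0.091 by edgeR's quasi-likelihood test) was higher in every MSR1 KO library than in any MSR1 WT library, where 13.4% and 12.1% of all tested genes were. Acta2 and Tagln, contractile genes of smooth muscle and myofibroblasts, were at -0.68 and -0.64 (adjusted p = 0.024 and 0.019 by edgeR's quasi-likelihood test). The defining markers of adipocytes, a cell type known for AOC3, were at or near 0. Of these 7 markers 4, Lep and Cidec among them, had 0 counts in every library, and the sum was 0 to 0.172 CPM in MSR1 KO and 0.19 to 0.194 CPM in MSR1 WT libraries. The 8 endothelial markers summed to between 114.3 and 139.3 CPM in MSR1 KO and between 80.0 and 115.9 CPM in MSR1 WT libraries. Among them Pecam1 was higher in every MSR1 KO library (log2 fold change 0.72, adjusted p = 0.027 by edgeR's quasi-likelihood test). Vwf was lower in every MSR1 KO library (-1.36, adjusted p = 0.051 by that edgeR test), and the remaining endothelial genes overlapped. Platelet markers summed to between 462.0 and 839.4 CPM against 451.9 to 648.6 CPM, neutrophil markers to between 655.3 and 1064 CPM against 426.3 to 811.9 CPM, and B cell markers to between 24.4 and 27.8 CPM against 25.1 to 29.3 CPM, and the ranges of all these lists but the adipocyte list overlapped. The part of the stromal RNA in the values of Maoa, Maob, Aoc3, Fah and Adh7 was not tested beyond these ratios.

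The genes with profiles most like those of Maob and Aoc3 were found by the root mean square difference of log2 CPM, centred on the mean of each gene, over the 6 libraries. For Maob these were Asphd2 (0.243), Gm17473 (0.250), Kif28 (0.307), Cacna1b (0.345) and Efr3b (0.373). Of these Efr3b had most counts, 24, 78 and 63 in MSR1 KO and 236, 274 and 363 in MSR1 WT libraries. Its low MSR1 KO library 1, shared with Maob, follows from the way the genes were picked. Asphd2, Gm17473 and Kif28 had 0 to 10 counts in MSR1 KO and 14 to 27 in MSR1 WT libraries, close to the limit of detection. For Aoc3 they were Npr3 (0.146), Dusp27 (0.174), Fbn2 (0.191), Adamts12 (0.195) and Dach1 (0.198). Npr3, the clearance receptor of natriuretic peptides, had 140, 146 and 108 counts in MSR1 KO and 463, 417 and 433 counts in MSR1 WT libraries, and Adamts12, a secreted protease, had 145, 226 and 121 against 484, 499 and 430. The lists for Maob and for Aoc3, of 5 genes each, had no gene in common, and nothing is read from this.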

How the data were processed

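RNA of co-cultured macrophages was sequenced as mRNA libraries on an Illumina sequencer, 3 of MSR1 KO and 3 of MSR1 WT. The authors deposited raw counts per gene and library, with no normalization, beside a signal per library that equals the count divided by a size factor and was not used for the tests. The deposited table also holds the authors' own fold changes, p-values and adjusted p-values, which were not used. The paper names TopHat as the aligner, whereas the submitters' processing notes name HISAT2 2.1.0, fastp 0.17.1 and DESeq2 1.18.1. Which program counted the reads, whether by strand, and on which build is not given in the sources used here. Positions are those of the table, and 49909 of the 52403 identifiers found in GENCODE M21 (GRCm38) had the same start and end there. A gene and its antisense partner therefore cannot be told apart.

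Genes were filtered with filterByExpr, scaled with TMM factors and compared by the quasi-likelihood test (glmQLFit, glmQLFTest; edgeR 4.0.16, R 4.3.3), with Benjamini-Hochberg adjustment over the 16402 tested genes. SEs were computed from the log2 fold change and the F statistic. CPM use the TMM library sizes, and levels per kb use the union of annotated exons, so that genes can be compared. Shares have 95% Wilson intervals. A 0 was taken to leave room for 3 counts, and intervals and limits cover counting error only. The 8 genes, the pathway lists and the marker lists, all hand-written, were chosen with earlier results of these data known. Named besides the 8 genes were Msr1, genes of each list past the adjusted threshold (up to 5) and its 3 highest per kb, the most abundant markers, the 5 profiles nearest to Maob and to Aoc3, and neighbouring genes. Thy1, Pdgfra, Hdc, Ddc, Th, Dbh, Pnmt, Tat, Hpd, Gstz1, Loxl3, Smox, Paox, Il4i1 and Aoc1 were named outside this rule, with their values known. So were Pdgfrb, Cxcl12, Lum, Nt5e, Fcgr1, Aif1, Mrc1, Got1 and Aldh4a1. Alternatives were DESeq2 1.42.0, RLE size factors, scaling by library size only, dropping the filter, requiring 10 counts in each library, a block for the replicate number, a prior count of 2, the longest transcript as length, and each library left out in turn. The test was checked on simulated counts with known changes. Spreadsheet software had turned 27 symbols into dates, of which 26 were restored, none of them a gene named here.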

Additional observations from a re-analysis of the deposited data

How the results depend on the processing

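The genes with an adjusted p under 0.05, 369 higher and 436 lower with edgeR, became 695 and 800 with DESeq2 1.42.0, 237 and 288 with no filter on low counts, and 59 and 78 with the replicate number as a block. Leaving out each library in turn gave 18 to 407 higher and 53 to 372 lower genes, and by the definition of DEGs 540 to 754 higher and 673 to 937 lower. The 4 pathway genes that were lower became 7 with DESeq2, where 1 was also higher, 1 with the block, and 1 to 4 with libraries left out, with 0 higher. The cause was not tested. Same-numbered libraries did not deviate together (correlations of -0.026, 0.019 and -0.005), so no pairing by number showed in these correlations. A pairing that touches only some genes was not tested. With that block 0 of the 8 genes were called, with no filter Fah alone, and with at least 10 counts in every library Maoa, Aoc3 and Fah, Maob then being untested. By the definition of DEGs 4 or 5 of the 8 genes, of which 5, 6 or 8 were tested, were lower in every setting. Over the settings 673 to 966 of all 14680 to 25014 tested genes were lower by that definition. The 8 genes were chosen with this contrast known, so nothing is read from their count. Groups of 3 were not searched for outlying libraries. Maob rests on 8 to 148 counts a library and Adh7 on 23 to 91, and at this depth Hgd and Adh1 could not be compared.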
